A study of Mus musculus with 2 samples.

Results

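The genes described here encode the lysosome, the lamellar body and the proton pump in the surfactant-making type 2 cells (type II pneumocytes) of the mouse lung. All 47 genes of a list fixed by symbol were found among the 24369 rows of the expression table. They comprise 9 genes of membrane proteins and regulators, 12 of acid hydrolases, 7 of sphingolipid and lipid handling, 8 of sorting to lysosome-related organelles and 11 of the V-ATPase. Sorted type 2 cells of wild-type C57BL6 mice were profiled by RNA-seq at postnatal day 7 (P7) and postnatal day 28 (P28), with 1 library per age and no treatment. How many animals went into a library, whether they were pooled and which markers were used for sorting is not given in the sources used here. Each value is an RPKM as deposited, that is, reads per kilobase of gene and per unit of sequencing depth. Because each age has a single library, no test was run and no replicate error is known, and "higher" and "lower" compare these 2 libraries only. In such bulk samples fewer cells of a type and less RNA per cell cannot be told apart.

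A lysosome is an acidic compartment in which hydrolases break down proteins, sugars and lipids. The lamellar body of the type 2 cell is a lysosome-related organelle: it shares membrane proteins and the acid interior with lysosomes, but it packs surfactant phospholipid and is released by exocytosis. The interior is acidified by the V-ATPase, in which a cytosolic V1 sector splits ATP and a membrane V0 sector carries the protons. Genes of the HPS complexes and of the AP-3 adaptor sort cargo to such organelles, and loss of some of them enlarges lamellar bodies. TFEB and TFE3 are transcription factors that bind an E-box, the palindrome CACGTG, in the promoters of many lysosomal genes.

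The promoters of the genes are shown because that E-box is the sequence through which those factors act. RefSeq promoters (GRCm38.p6, 250 bases before to 50 bases after a transcript start) were found for 43 of the 47 genes. CACGTG, which reads the same on both strands, was present in 14 of these 43 genes (32.6%), against 8.09% of all 27025 genes with a promoter and 12.1% of the 7392 of them that reached 1 RPKM at either age. The longer TCACGTG, searched on both strands and always holding a CACGTG, was present in 13 of 43 (30.2%), against 4.29% of all genes and 7.37% of those with 1 RPKM. TCACGTGA was present in 7 of 43 (16.3%), against 1.12% and 2.42%. The longest form counted, TCACGTGA with a G before it and a C after it, was present in 1 of 43 (Cln3, 2.33%). This form was present in 0.370% of all genes and 0.920% of those with 1 RPKM. These matches describe letters in a window and are not evidence of binding. Genes with more than 1 CACGTG numbered 7, with 4 copies in Lamp1. The 250 bases before the start of Lamp1 and of the V-ATPase gene Atp6v0b are given with each CACGTG in capitals.
Lamp1 (chr8:13158911-13159160, plus strand): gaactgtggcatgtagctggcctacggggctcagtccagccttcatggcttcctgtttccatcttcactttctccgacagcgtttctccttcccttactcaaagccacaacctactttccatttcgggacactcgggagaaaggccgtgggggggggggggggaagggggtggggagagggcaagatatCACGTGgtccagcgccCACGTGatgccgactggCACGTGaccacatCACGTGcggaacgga
Atp6v0b (chr4:117887330-117887579, minus strand): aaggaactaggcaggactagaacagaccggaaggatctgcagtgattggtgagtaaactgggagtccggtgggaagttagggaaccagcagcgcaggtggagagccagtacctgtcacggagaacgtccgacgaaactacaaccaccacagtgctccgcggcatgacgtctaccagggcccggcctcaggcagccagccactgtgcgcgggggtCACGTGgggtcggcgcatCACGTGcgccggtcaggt

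Windows of 30 bases around the E-box of 7 further genes of different roles are given in the same way.
Mcoln1 (chr8:3500462-3500491, plus strand): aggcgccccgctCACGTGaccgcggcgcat
Ctsd (chr7:142387908-142387937, minus strand): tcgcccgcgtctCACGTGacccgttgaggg
Cln3 (chr7:126583340-126583369, minus strand): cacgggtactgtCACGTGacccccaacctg
Atp6v0d1 (chr8:105566050-105566079, minus strand): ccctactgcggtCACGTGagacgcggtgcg
Atp6v1a (chr16:44139373-44139402, minus strand): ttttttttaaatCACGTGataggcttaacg
Hps5 (chr7:46796091-46796120, minus strand): gggcgctgagggCACGTGaccggaaacgcc
Glb1 (chr9:114401018-114401047, plus strand): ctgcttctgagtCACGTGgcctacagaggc

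The genes with the highest level and the second highest ratio among those that reached 1 RPKM, Lamp3 and Atp6v1e1, had no CACGTG in their promoters. The 250 bases before the start of Lamp3 follow.
Lamp3 (chr16:19706366-19706615, minus strand): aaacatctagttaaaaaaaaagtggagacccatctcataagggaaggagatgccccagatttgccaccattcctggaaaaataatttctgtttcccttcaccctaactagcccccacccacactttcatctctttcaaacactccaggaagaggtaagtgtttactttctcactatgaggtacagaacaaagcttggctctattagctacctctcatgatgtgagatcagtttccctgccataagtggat

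With and without a CACGTG the genes had ratios over overlapping ranges. The 13 genes with the motif and 1 RPKM had a median log2 ratio (P28 over P7, of RPKM + 1) of 0.06, from -0.34 to 0.97. The 27 without it had a median of 0.09, from -0.43 to 0.85.

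**Figure D1:**
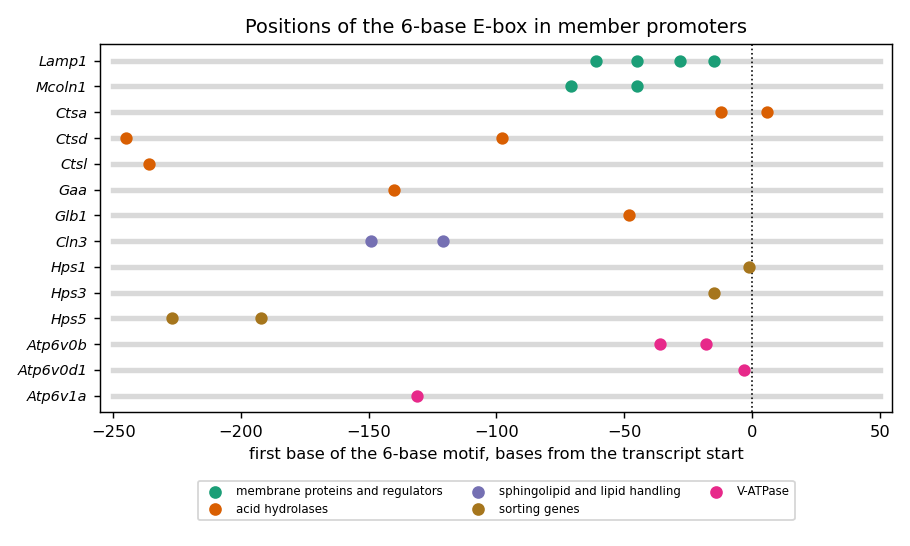
Each point is the first base of a CACGTG, in bases from the transcript start, in the promoters of the 14 genes that hold it, colored by role. Lamp1 had 4 copies, and its copies and those of Atp6v0b lay within 61 bases of the start, whereas those of Hps5 lay 192 and 227 bases before it.

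Few of the 47 genes were far apart between the ages, which also held for all genes. Of the 44 that reached 1 RPKM in at least 1 library, 0 were 2-fold higher at P28 and 0 were 2-fold lower on the log2(RPKM + 1) scale. The shares of all 9653 genes were 1.18% and 1.96%, so both counts were near the background. At 1.5-fold, 2 of the 44 were higher (Atp6v0b and Atp6v1e1) and 0 lower, against 4.50% and 7.46% of all genes, so the share of the list that was higher was near the background. Their median log2 ratio was 0.08, while that of all genes was -0.08. The 3 genes below 1 RPKM in both libraries were Pla2g15, Hps1 and Hps6. Summed over the 47 genes, the level was 814 RPKM at P7 and 978 at P28, or 0.749% and 0.684% of each library's total. Lamp3 alone made up much of that difference, since without it the sums were 587 and 644 RPKM.

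The scaling of the libraries set the sign of many of these ratios, which changed in 20 of the 47 genes when both totals were made equal. All rows together held 108758 RPKM at P7 against 143071 at P28. With both libraries brought to the same total the median of all genes moved by -0.29, to -0.37, and that of the 44 genes to -0.27. Of the 44 genes, 26 had a log2 ratio above 0 as deposited, against 39.3% of all genes, and 6 did with equal totals, against 13% of all genes. Relative to the median of all genes, which 50% of genes exceed, 28 of 44 were above as deposited and 29 with equal totals. Read numbers recovered from the spacing of the RPKM values gave a 95% exact counting interval for each ratio, which covers counting error only. This interval lay above 1 for 17 of the 44 genes and below 1 for 11, against 18.5% and 34.1% of 9542 genes. These shares of all genes differ by level and are given by level further below. With equal totals the interval lay above 1 for 5 and below 1 for 30, against 5.36% and 68.9% of all genes, so the share below 1 was that of the background.

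**Figure D2:**
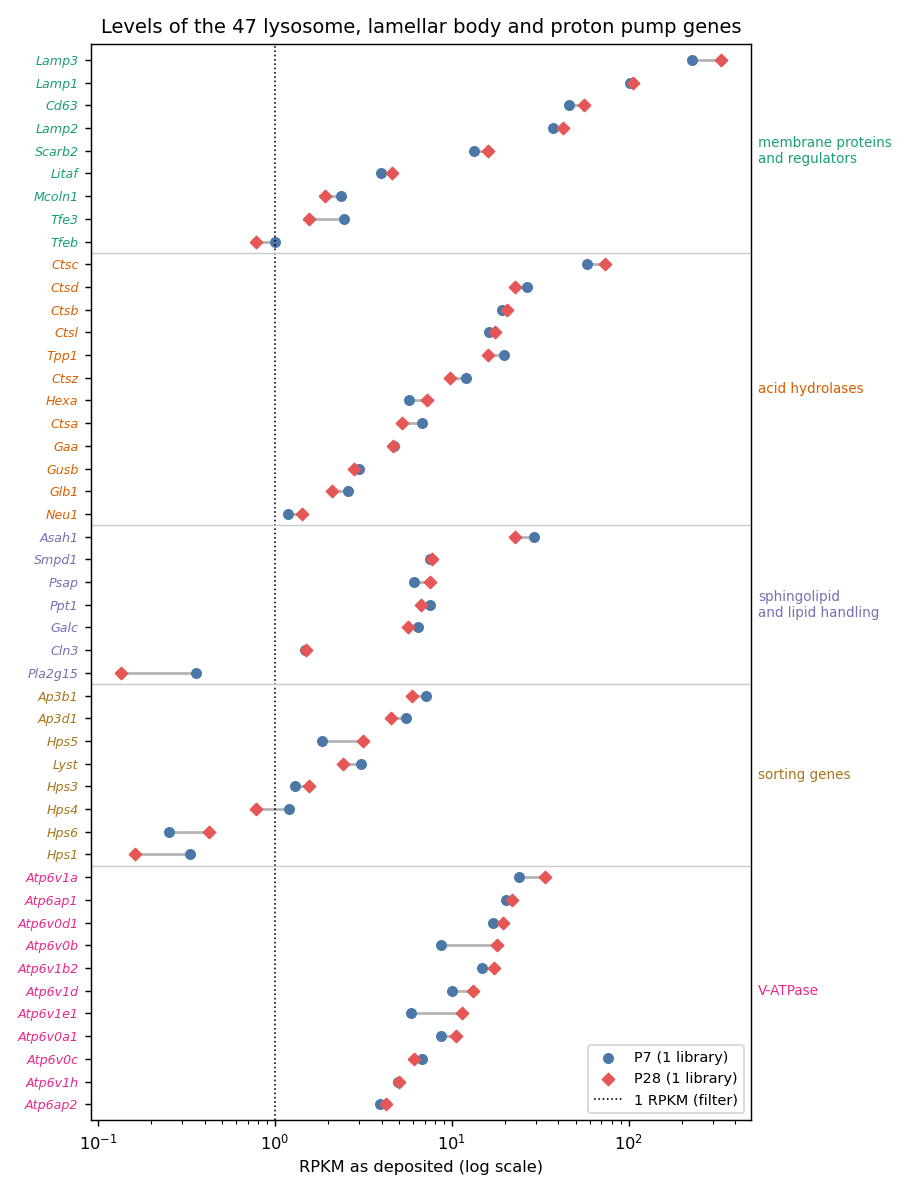
RPKM of each gene at P7 (circles) and P28 (diamonds) on a log axis, grouped by role, with 1 library per age. Levels ran from 0.135 RPKM (Pla2g15 at P28) to 334 RPKM (Lamp3 at P28), and most pairs of points lie close together.

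**Figure D3:**
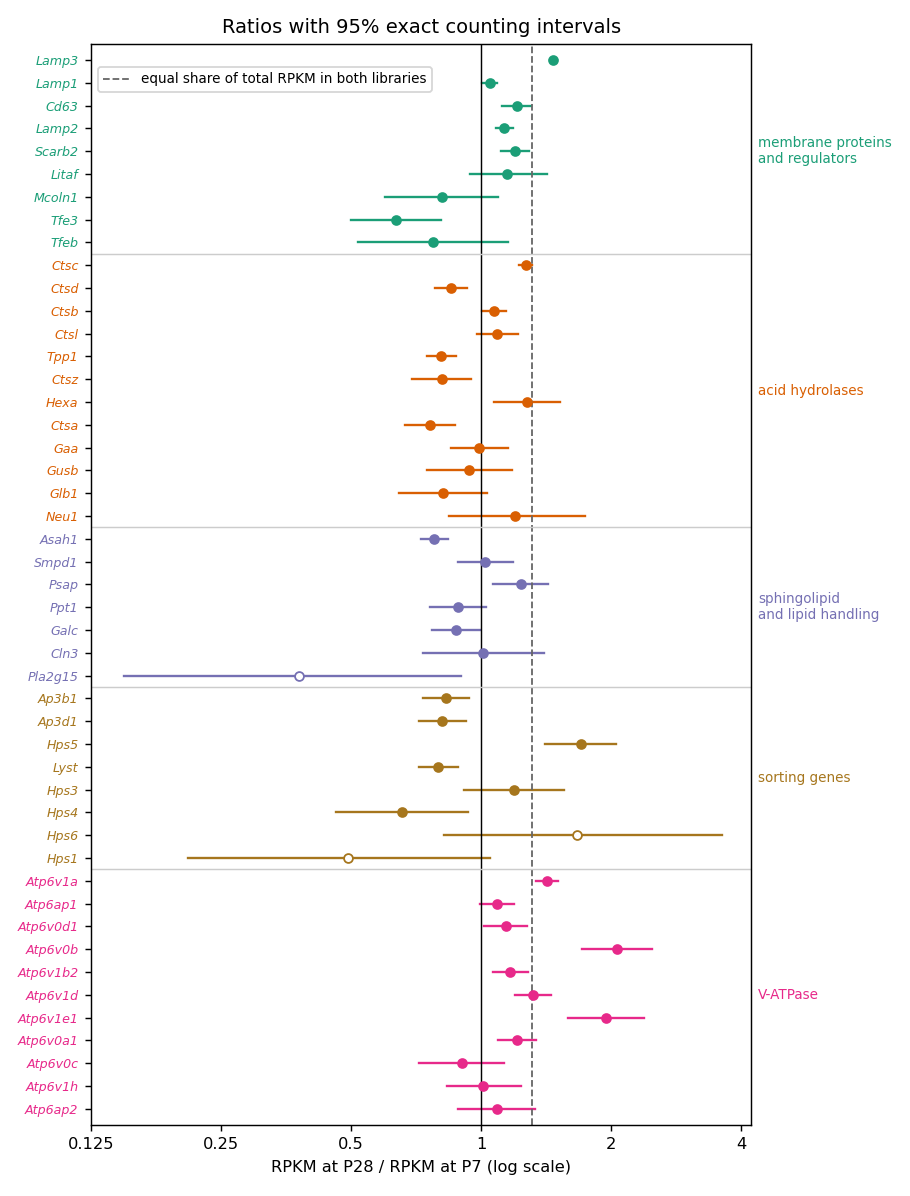
RPKM at P28 over RPKM at P7 for each gene (points) with its 95% exact counting interval (lines), on a log axis and grouped by role. Open points are the 3 genes below 1 RPKM, and the dashed line at 1.32 marks a gene with the same share of both totals. Atp6v0b (2.06), Atp6v1e1 (1.95) and Hps5 (1.70) lie farthest to the right among the filled points.

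The lysosomal membrane glycoproteins Lamp3 and Lamp1 were the most abundant of these genes, and both had a higher level at P28 as deposited. Lamp3, which marks the lamellar body membrane of type 2 cells, had 227 RPKM at P7 and 334 at P28. It ranked at percentile 99.7 and 99.8 of all genes that reached 1 RPKM, and was 1.47-fold higher (counting interval 1.442 to 1.503). Its log2 ratio of 0.56 was 0.16 with equal totals, so its direction held on both scales. Lamp1, a major structural glycoprotein of the lysosomal membrane, had 102 and 106 RPKM, a ratio of 1.05 (1.004 to 1.09). Lamp2, its close relative, which also serves in autophagy, had 37.4 and 42.4 RPKM, a ratio of 1.13 (1.085 to 1.184). Within each library, a comparison that scaling does not touch, Lamp3 was 2.24 times the level of Lamp1 at P7 and 3.15 times at P28. Against Lamp2 it stood at 6.06 and 7.87 times.

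Among the other membrane genes, Cd63 and Scarb2 had ratios close to that of Lamp2. The tetraspanin Cd63, found on late endosomes and lysosome-related organelles, had 46.0 and 55.6 RPKM (1.21-fold higher, 1.12 to 1.31). Its pseudogene Cd63-ps could take some of its reads. Scarb2, the lysosomal membrane protein LIMP-2, had 13.3 and 15.9 RPKM (1.20-fold higher, 1.11 to 1.29). The log2 ratios of Lamp1, Lamp2, Cd63 and Scarb2, from 0.06 to 0.27 as deposited, were -0.33, -0.21, -0.12 and -0.13 with equal totals, so their direction is not set by these data. Litaf, a protein of the late endosomal membrane, had 3.99 and 4.60 RPKM, with an interval of 0.942 to 1.42. Mcoln1, the lysosomal calcium channel TRPML1, had 2.35 and 1.91 RPKM, a ratio of 0.811 on the other side of 1, with an interval of 0.598 to 1.09.

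The listed transcription factors, Tfe3 and Tfeb, were among the lowest of the 9 genes and had ratios under 1, though only the interval of Tfe3 excluded 1. Tfe3 had 2.45 RPKM at P7 and 1.56 at P28, a ratio of 0.634 (0.4998 to 0.8074). Its log2 ratio was -0.43, and -0.69 with equal totals. Tfeb had 1 and 0.777 RPKM, from 51 and 55 reads, and its interval of 0.518 to 1.15 included 1. Of their relatives Mitf had 2.62 and 2.79 RPKM, and Tfec was listed at 0 in both libraries. Tfe3 is 1 of 4 genes of the list on the X chromosome, with Lamp2, Atp6ap1 and Atp6ap2, whose ratios were 1.13, 1.09 and 1.09. Xist had 52.7 RPKM at P7 and 0.245 at P28, and the Y-linked Ddx3y was listed at 0 at P7 and had 4.01 RPKM at P28, so that sex and age cannot be told apart here.

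The 12 acid hydrolases had levels from 1.18 to 73.6 RPKM and ratios on both sides of 1. As deposited, the counting interval lay above 1 for 3 (Ctsb, Ctsc and Hexa) and below 1 for 4 (Ctsa, Ctsd, Ctsz and Tpp1), against 18.5% and 34.1% of all genes. The median log2 ratio was -0.04, next to -0.08 for all genes. Their summed level was 176 RPKM at P7 and 183 at P28. With equal totals all 12 had a log2 ratio below 0, on a scale where 13% of all genes lay above 0. On that scale Ctsa, Ctsd, Ctsz and Tpp1 were 1.5-fold lower, as were 24% of all genes.

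Among the cathepsins, the lysosomal proteases, Ctsc led in both libraries. Ctsc, the dipeptidyl peptidase that activates granule proteases, had 58.1 and 73.6 RPKM (1.27-fold higher, 1.23 to 1.31). Ctsd, an aspartic protease, had 26.6 and 22.7 RPKM, a ratio of 0.853 (0.783 to 0.929). The level of Ctsc was thus 2.18 times that of Ctsd at P7 and 3.24 times at P28. Ctsb, a cysteine protease, had 19.1 and 20.5 RPKM (ratio 1.07, 1.004 to 1.14). Ctsl, another cysteine protease, had 16.1 and 17.6 RPKM, with an interval of 0.980 to 1.22. Ctsz, a carboxypeptidase, had 12 and 9.75 RPKM (ratio 0.811, 0.692 to 0.948). Ctsa, the carboxypeptidase that protects Neu1 and Glb1 in a complex, had 6.81 and 5.19 RPKM (ratio 0.762, 0.667 to 0.869). The intervals of its partners included 1 as deposited. The sialidase gene Neu1 had 1.18 and 1.42 RPKM (0.844 to 1.74), and the beta-galactosidase gene Glb1 had 2.58 and 2.11 (0.644 to 1.03). With equal totals the ratio of Glb1 was 0.621.

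The other hydrolases were mostly at low levels. Tpp1, tripeptidyl peptidase 1, was the exception, with 19.7 and 15.9 RPKM (ratio 0.808, 0.748 to 0.873). Hexa, the alpha subunit of beta-hexosaminidase, had 5.69 and 7.26 RPKM (1.28-fold higher, 1.07 to 1.52), and -0.04 on the log2 scale with equal totals. Gaa, acid alpha-glucosidase, had 4.71 and 4.66 RPKM, and the beta-glucuronidase gene Gusb had 2.98 and 2.80. Both intervals included 1. Exons of Ctsd shared 34.4% of their bases with Gm49369 on the same strand, and those of Ctsl shared 26.8% with the antisense gene Gm47123, so their reads may be split or mixed, since no source used here states how the counting treated strand. Opposite-strand genes also shared 12.8% of the exon bases of Ctsb (Fdft1, 6.465 and 5.705 RPKM) and 10.5% of those of Ctsa (Pltp, 3.742 and 3.634 RPKM). Tmem202, at 0.1356 and 0.1295 RPKM, shared 12.8% of those of Hexa.

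Of the 7 genes of sphingolipid and lipid handling, Asah1 was the most abundant and was lower at P28. Asah1, acid ceramidase, which splits ceramide, had 29 RPKM at P7 and 22.6 at P28, a ratio of 0.780 (0.725 to 0.839) and a log2 ratio of -0.35, or -0.73 with equal totals. Smpd1, acid sphingomyelinase, which makes ceramide from sphingomyelin, had 7.56 and 7.74 RPKM, with an interval of 0.886 to 1.185. The level of Asah1 was therefore 3.84 times that of Smpd1 at P7 and 2.92 times at P28. Psap, the precursor of the saposins that present sphingolipids to hydrolases, had 6.07 and 7.51 RPKM (1.24-fold higher, 1.07 to 1.43), and -0.08 on the log2 scale with equal totals. Galc, which cleaves galactosylceramide, had 6.47 and 5.65 RPKM (ratio 0.874, 0.768 to 0.994). Ppt1, a palmitoyl-protein thioesterase, had 7.53 and 6.67 RPKM, and Cln3, a lysosomal membrane protein, had 1.47 and 1.49; both intervals included 1. Pla2g15, the lysosomal phospholipase A2, known for surfactant breakdown in alveolar macrophages, had 0.357 and 0.135 RPKM, from 17 and 9 reads, an interval of 0.149 to 0.899.

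Genes that sort cargo to lysosome-related organelles had the lowest median level of the roles. Of the 6 that reached 1 RPKM, 4 had a lower level at P28 and 2 had a log2 ratio above 0. Since 39.3% of all genes had a log2 ratio above 0, this split was near the background. Of these 6 genes the counting interval lay below 1 for 4 (Ap3b1, Ap3d1, Lyst and Hps4) and above 1 for 1 (Hps5), where it did so for 34.1% and 18.5% of all genes. With equal totals it lay below 1 for 68.9% of all genes. The median log2 ratio of the 6 was -0.24, or -0.51 with equal totals, while that of all genes was -0.08 and -0.37. Ap3b1 and Ap3d1, the large subunits of the AP-3 adaptor, had 7.13 and 5.53 RPKM at P7 and 5.92 and 4.50 at P28. Their ratios were 0.830 (0.735 to 0.936) and 0.814 (0.718 to 0.924). Lyst, the large trafficking regulator mutated in beige mice, had 3.05 and 2.43 RPKM (ratio 0.797, 0.719 to 0.884).

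As deposited, the subunits of the BLOC-2 complex (Hps3, Hps5, Hps6) and the BLOC-3 complex (Hps1, Hps4) had ratios on different sides of 1. Hps5 had 1.84 RPKM at P7 and 3.14 at P28, from 161 and 382 reads, and was 1.70-fold higher (1.41 to 2.06). With equal totals its log2 ratio of 0.54 was 0.26, still above 0. Its partner Hps3 had 1.3 and 1.55 RPKM (0.914 to 1.56), and Hps6 had 0.253 and 0.422 RPKM from 12 and 28 reads (0.823 to 3.61). In BLOC-3, Hps4 had 1.20 and 0.786 RPKM (ratio 0.656, 0.461 to 0.931), and Hps1 had 0.330 and 0.162 RPKM from 18 and 12 reads (0.210 to 1.05). All 3 subunits of BLOC-2 had ratios above 1 as deposited and both of BLOC-3 below 1, but only Hps5 and Hps4 had intervals that excluded 1. With equal totals Hps3 had a log2 ratio of -0.09 and Hps6 of 0.09, so the direction did not hold for all of BLOC-2. Hps6 and Hps1 were also below 1 RPKM in both libraries.

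Among the roles of the list, the V-ATPase was the one whose listed genes most often had ratios above those of other genes. As deposited 10 of its 11 genes had a log2 ratio above 0 (39.3% of all genes did), and the counting interval lay above 1 for 7 and below 1 for 0 (18.5% and 34.1% of all genes). The median log2 ratio was 0.21. Of the 11 genes, 9 lay at a mean of 5 to 50 RPKM, where the interval lay above 1 for 28.6% of all genes and below 1 for 35.2%. With equal totals 4 of 11 were above 0 (13% of all genes), the interval lay above 1 for 3 and below 1 for 5 (5.36% and 68.9% of all genes), and the median was -0.16, but 10 of 11 were above the median of all genes. Summed over the 11 genes the level was 125 RPKM at P7 and 161 at P28, or 0.115% and 0.112% of the totals. The 14 other V-ATPase and associated genes that reached 1 RPKM had a median log2 ratio of -0.02, and -0.33 with equal totals. Their interval lay above 1 for 4 and below 1 for 3 (18.5% and 34.1% of all genes). The values of the 11 listed genes therefore do not describe all V-ATPase genes.

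The subunits with the largest ratios came 1 from each sector. Atp6v0b, the c'' subunit of the proton-carrying ring of V0 (chromosome 4, 117884326 to 117887333, minus strand, protein coding), had 8.67 RPKM at P7 and 17.9 at P28, from 153 and 440 reads. It was 2.06-fold higher (1.71 to 2.49), with a log2 ratio of 0.97, and 0.60 with equal totals. Atp6v1e1, the E subunit of the V1 stalk (chromosome 6, 120794305 to 120822793, minus strand, protein coding), had 5.85 and 11.4 RPKM, from 135 and 367 reads. It was 1.95-fold higher (1.59 to 2.39), with a log2 ratio of 0.85, and 0.50 with equal totals. Both stayed above 0 on either scale. The antisense gene Gm12841 covers 11.8% of the exon bases of Atp6v0b, so part of its reads could come from there.

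The remaining core subunits were closer between the ages. Atp6v1a, the catalytic A subunit, had 23.8 and 33.8 RPKM (1.42-fold higher, 1.341 to 1.505), and 0.11 on the log2 scale with equal totals. Atp6v1b2, the B subunit that alternates with A in the head of V1, had 14.7 and 17.2 RPKM (1.17-fold higher, 1.065 to 1.283). The level of Atp6v1a was 1.62 times that of Atp6v1b2 at P7 and 1.97 times at P28. Atp6v1d, the central shaft, had 9.95 and 13.1 RPKM (1.32-fold higher, 1.198 to 1.455). Atp6v0a1, an isoform of the a subunit, had 8.70 and 10.5 RPKM (1.21-fold higher, 1.10 to 1.34). Atp6v0d1, which joins the rotor to the ring, had 17.1 and 19.5 RPKM (1.14-fold higher, 1.02 to 1.28). With equal totals Atp6v1b2, Atp6v0a1 and Atp6v0d1 turned to log2 ratios of -0.16, -0.11 and -0.19, while Atp6v1d was at 0.00.

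For the other 4 genes the interval included 1. Atp6v0c, which encodes most of the ring and has the pseudogenes Atp6v0c-ps1 and Atp6v0c-ps2 that could take some of its reads, had 6.76 and 6.09 RPKM (0.7165 to 1.130). It was the only V-ATPase gene of the list with a ratio under 1, and the level of Atp6v0b went from 1.28 times that of Atp6v0c at P7 to 2.93 times at P28. Atp6v1h, a regulatory subunit, had 4.94 and 5 RPKM (0.8335 to 1.235). The accessory subunit genes Atp6ap1 and Atp6ap2 (the prorenin receptor) had 20.2 and 22 RPKM and 3.91 and 4.24 RPKM, with intervals of 0.9966 to 1.193 and 0.8835 to 1.331.

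When every paralog was added to its subunit, 10 of 13 subunits had a higher sum at P28 as deposited, and 5 did with equal totals. With equal totals subunit D (Atp6v1d) had a rounded ratio of 1.00 and is not among the 5. Its gene is counted among the listed V-ATPase genes above 0 on that scale, so it stands at the border. By single gene, 39.3% and 13% of all genes had a log2 ratio above 0 on these scales. As plain ratios, the sums were over 1.5-fold higher for 4 subunits, namely c'' (Atp6v0b), E (Atp6v1e1), F (Atp6v1f, 7.06 and 11.5 RPKM) and G (mainly Atp6v1g1, 20.7 and 33.3 RPKM). With 1 RPKM added to each sum their log2 ratios were 0.97, 0.85, 0.63 and 0.64. On that scale 4.50% of single genes were 1.5-fold higher. The a subunit was mostly Atp6v0a1, with 60.3% of the subunit's RPKM at P7 and 65.5% at P28, while Tcirg1, the a3 isoform, went from 2.05 to 1.43 RPKM. The B subunit was nearly all Atp6v1b2 (99.2% and 98.5%) and the d subunit nearly all Atp6v0d1 (98.8% and 99.4%). The C subunit was mostly Atp6v1c2, an isoform of restricted tissue expression, with 27.9 and 26 RPKM, next to 4.33 and 6.03 for the widely expressed Atp6v1c1. Atp6v1e2 was listed at 0 in both libraries.

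**Figure D4:**
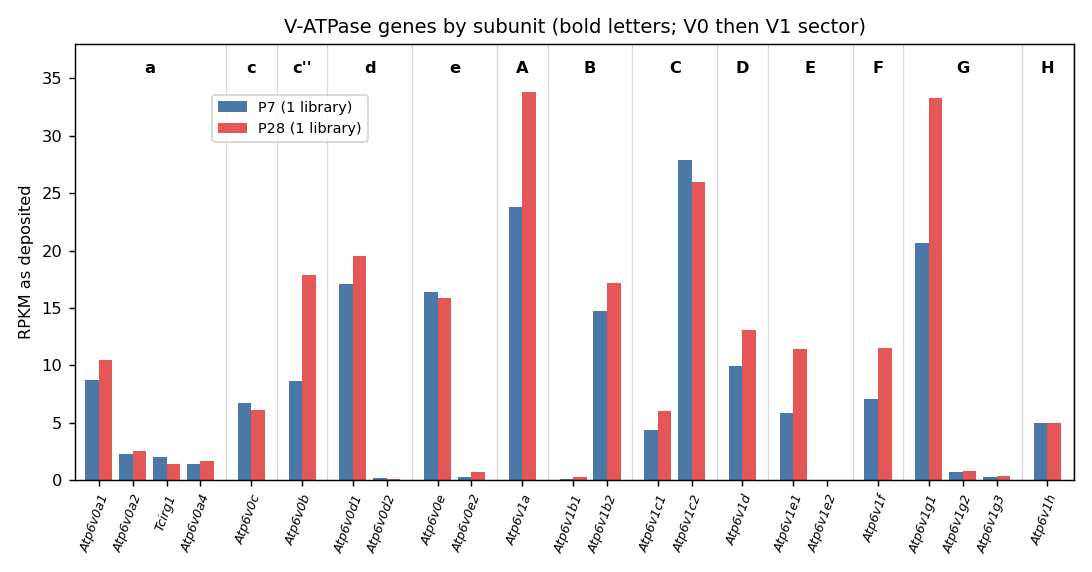
RPKM of every V-ATPase subunit gene and paralog at P7 and P28 as bars from 0, with 1 library per age and the subunit letter above. Atp6v0b, Atp6v1e1, Atp6v1f and Atp6v1g1 show the widest relative gaps among the genes above 5 RPKM, and Atp6v1c2 exceeds Atp6v1c1 in both libraries.

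Gene length moved with these ratios. The V-ATPase genes with the largest ratios have short exons in all, 1000 bases for Atp6v0b, 1312 for Atp6v1e1, 1135 for Atp6v1g1 and 703 for Atp6v1f. Among all genes that reached 1 RPKM and had a length, the 582 under 1000 bases had a median log2 ratio of 0.13, and 14.8% of them were 1.5-fold higher at P28. Genes of 1000 to 1500 bases had a median of -0.00 with 6.64% higher, and those of 4000 bases or more a median of -0.13 with 2.58% higher. Within a mean of 5 to 50 RPKM, where Atp6v0b and Atp6v1e1 lie, genes of 1000 to 1500 bases had a median of 0.09 with 9.12% higher. In that range those under 1000 bases had 0.18 with 12.1%, and those of 4000 bases or more -0.11 with 4.64%. The list holds 3 V-ATPase genes of 1000 to 1500 bases, of which Atp6v0b (0.97) and Atp6v1e1 (0.85) had log2 ratios above 0 and Atp6v0c (-0.13) below it. The part of length in the V-ATPase ratios was not tested. Level also moved with them. Of all genes, 35.9% had a log2 ratio above 0 at a mean of 1 to 5 RPKM, 46.4% at 5 to 50 and 55.4% at 50 to 500. Of the list genes, 7 of 13, 15 of 25 and 4 of 4 did in these ranges. Over all genes with a length, the counting interval lay above 1 for 12.4%, 28.6% and 47.2% in these ranges. It lay below 1 for 31.8%, 35.2% and 36.7%. For the list genes it lay above 1 for 1, 12 and 4, and below 1 for 2, 8 and 0.

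The roles differed in where their medians lay. The V-ATPase median was above that of all genes by 0.29 as deposited and by 0.22 with equal totals. The membrane proteins and regulators were above it by 0.25 and 0.17, and the sorting genes below it by values of -0.15 and -0.14. The hydrolases, at 0.04 and 0.02, and the lipid genes, at 0.01 and -0.03, were next to it.

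**Figure D5:**
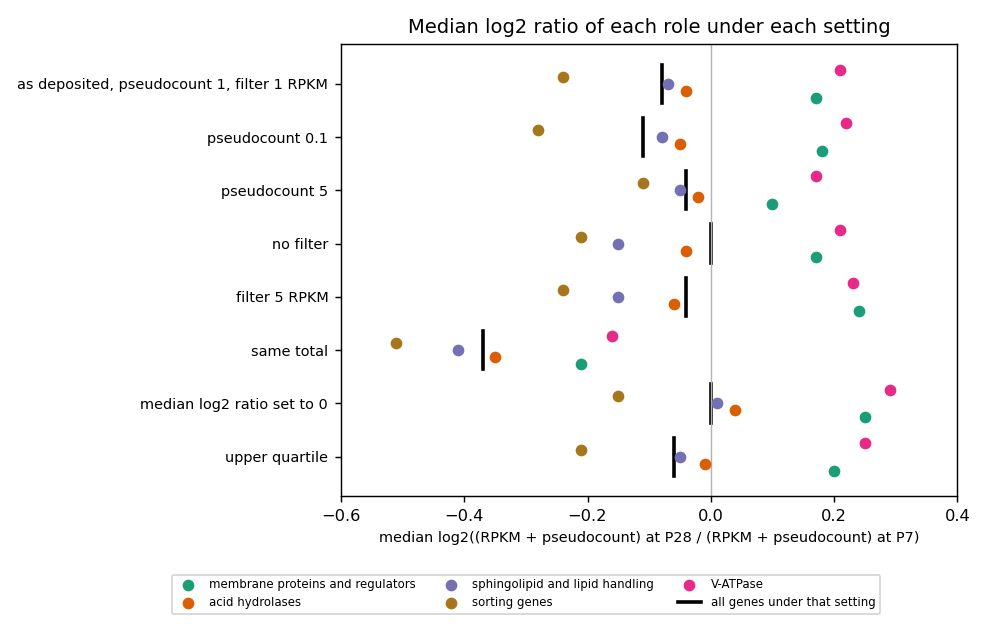
Median log2 ratio of each role (points) and of all genes (black bars) under the reported setting and 7 alternatives. Points and bars move left together with equal totals, and the V-ATPase and membrane points lie to the right of the bar in every setting shown.

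Among 122 other genes of the pathway that were measured, 100 reached 1 RPKM. Of these, 6 were 1.5-fold higher at P28 and 2 lower, against 4.50% and 7.46% of all genes, so the share that was higher was near the background. Their median log2 ratio was 0.01. Those higher were Prdx6, Rnasek, Lamtor4, Ids, Atp6v1g1 and Atp6v1f. Rnasek, a small protein that associates with the V-ATPase, had 26.4 and 50.1 RPKM (1.90-fold higher, 1.654 to 2.184). Prdx6, a peroxiredoxin with phospholipase A2 activity found in lamellar bodies, had 23.8 and 52.8 RPKM (2.22-fold higher, 2.07 to 2.38). Ids, iduronate sulfatase, had 9.16 and 15.4 RPKM, and Lamtor4, a subunit of the Ragulator complex on the lysosomal surface, had 1.75 and 3.48. Of these, Rnasek (611 bases) and Lamtor4 (877 bases) are again short.

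The 2 genes that were lower were Lipa and Plbd2. Lipa, lysosomal acid lipase, had 3.63 RPKM at P7 and 0.890 at P28 (ratio 0.245, 0.1819 to 0.3263), and Plbd2, a phospholipase B-like protein, had 3.14 and 1.38 (ratio 0.439, 0.3544 to 0.5436). The most abundant of these other genes were Ctsh, a cathepsin that processes surfactant proteins (128 and 106 RPKM), Npc2 (98.9 and 145), the tetraspanin Cd81 (80.1 and 77.1) and Abca3, the phospholipid pump of the lamellar body (61.7 and 65.1). Of 28 genes of delivery and sorting that reached 1 RPKM, 0 were 1.5-fold apart, where 4.50% of all genes were higher and 7.46% lower. Their median was -0.12, next to -0.08 for all genes. The interval lay below 1 for 11 and above 1 for 2 (34.1% and 18.5% of all genes), so the share below 1 was near the background.

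The libraries were checked for the labelled cell type and for other cells rich in lysosomes. The 12 type 2 markers, Lamp3 among them, summed to 18550 RPKM at P7 and 35341 at P28, and all reached 1 RPKM. Most of that difference lay in Sftpc (13343 and 24085 RPKM), Lyz2 (1635 and 5809) and Sftpa1 (809 and 1900), while Abca3 and Etv5 (85.3 in both) were nearly level and Nkx2-1 had 60.1 and 47.5 RPKM. The 23 macrophage markers measured summed to 24.3 and 27.8 RPKM, of which Lcp1 gave 15.7 and 20.7, and 5 reached 1 RPKM. Besides Lcp1 these were Csf1r (2.23 and 1.49 RPKM), Cd14 (3.52 and 2.55), Mpeg1 (0.746 and 1.28) and Cd68 (0.455 and 1.08). Marco, C1qa, C1qb, C1qc, Adgre1 and Siglecf were listed at 0 in both libraries, and Ptprc had 8 reads and 1. Airway markers (7 genes) went from 7257 to 19020 RPKM, endothelial markers (8 genes) from 40.9 to 14.5, fibroblast markers (8 genes) from 30.7 to 11.4, proliferation markers (4 genes) from 45.7 to 14.8 and erythroid markers (4 genes) from 28.1 to 0.725. The part of macrophages and of airway, endothelial, fibroblast, erythroid and dividing cells in the ratios above was not tested.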

How the data were processed

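Per the file headers, the authors deposited RPKM values, with 1 column for each library. GRCm38 (mm10), TopHat and TopHat2 2.0.9 appear, with no role or order, per the submitters' processing notes. Which counting program, annotation and filters were used is not given in the sources used here. The columns matched 1 sample title each, and 0 were unused.

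Ratios are log2(RPKM + 1) at P28 minus the same at P7, which understates low genes, over genes that reached 1 RPKM at either age. Folds with intervals are plain ratios. Read numbers came from the spacing of low RPKM values times length, with the joined exons of RefSeq-linked transcripts (GENCODE vM21, GRCm38) as length. Of 2203 low values at P7 and 2031 at P28 in genes of a single length, 63.0% and 60.7% lay within 0.05 of a whole read (10% by chance), and 55.5% and 53.2% in genes of several lengths. Values between steps make read numbers approximate. About 17600000 reads at P7 and 24600000 at P28 lie behind the denominators. Intervals are exact (Clopper-Pearson, SciPy 1.17.1) at 95% and cover counting error only. They treat each read as independent. Since PCR reads are not independent molecules, the intervals may be too narrow even for counting error. The procedure was checked on simulated data. Plots used matplotlib 3.10.9.

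Equal totals means that both libraries were rescaled to the geometric mean of their totals. Alternatives changed the pseudocount, the filter and the scaling, and, chosen after seeing the data, the length behind the read numbers.

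Members, roles and other lists were chosen with earlier results of these data known. Named genes were all 47 members and, of the other pathway genes, those 1.5-fold apart and the 4 most abundant. Tcirg1, Atp6v1c1, Atp6v1c2, Atp6v1e2, Mitf, Tfec, Lcp1, Csf1r, Cd14, Mpeg1, Cd68, Ptprc, Gm49369, Gm47123, Gm12841, Fdft1, Pltp and Tmem202 were named after their values were seen. So were the genes listed at 0, Xist, Ddx3y and the type 2 markers other than members. Exon overlaps and pseudogenes are from GENCODE vM21. Of 52 member promoters, 45 ended in bases found in a transcript of the gene.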

Additional observations from a re-analysis of the deposited data

How the results depend on the processing

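No paired analysis was possible because each age has 1 library. Leaving out a replicate was impossible for the same reason. The count 2-fold lower was 0 under each of the 7 alternatives of pseudocount, filter and scaling, against 0.352% to 5.49% of all genes. With a pseudocount of 0.1, 1 gene was 2-fold higher (Atp6v0b; 2.34% of all genes). At 1.5-fold, 3 were higher there (Hps5, Atp6v0b and Atp6v1e1) and 1 was lower (Tfe3), against 7.41% and 14.3% of all genes. With both libraries at the same total, 1 gene was 1.5-fold higher (Atp6v0b) and 6 were lower (Tfe3, Ctsa, Ctsd, Ctsz, Tpp1 and Asah1), against 1.65% and 24% of all genes, the median log2 ratio was -0.27, and counting intervals lay above 1 for 5 genes and below 1 for 30 (5.36% and 68.9% of all genes). This follows from the higher total at P28. With the median log2 ratio of all genes set to 0, 1 gene was 2-fold higher, against 1.49% of all genes. On that scale 4 were 1.5-fold higher (Lamp3, Hps5, Atp6v0b and Atp6v1e1), against 6.13% of all genes. There 20 intervals lay above 1 and 6 below (25.8% and 25.3% of all genes). Under the other 4 (pseudocount 5, no filter, a filter of 5 RPKM and the upper quartile) the count 1.5-fold higher was 2 or 3, against 1.62% to 7.38% of all genes. The median log2 ratio of the list there lay between 0.05 and 0.12. The sign of the log2 ratio changed in 20 of the 47 genes with equal totals, in 2 with the median set to 0, in 1 with the upper quartile and in 0 under the pseudocounts and filters. Mean transcript length in place of joined exons gave 17 and 11 intervals as before. Depth limits Pla2g15, Hps1 and Hps6, with 9 to 28 reads in each library.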
